A study of Caenorhabditis elegans with 12 samples.

Results

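The genes described here encode the insulin receptor of *Caenorhabditis elegans*, the kinases and lipid enzymes that carry its signal, and the FOXO transcription factor on which that signal acts. They were taken by name as 10 genes: *daf-2*, *ist-1*, *age-1*, *aap-1*, *daf-18*, *pdk-1*, *akt-1*, *akt-2*, *sgk-1* and *daf-16*. Only probe sets carrying exactly 1 gene symbol were used, and each of the 10 genes had 1 of them among the 29317 probe sets measured, which name 25478 genes by 1 symbol. All 10 lay above the dim level of 3.01 (the 40th percentile of all values, on the log2 scale) on every one of the 12 arrays.

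In *C. elegans*, insulin-like peptides bind the receptor DAF-2, which activates the phosphoinositide 3-kinase AGE-1. The lipid made by AGE-1 is removed by the phosphatase DAF-18, and it brings PDK-1 and the AKT kinases into action, which phosphorylate the FOXO factor DAF-16 and hold it in the cytoplasm. When the signal is low, DAF-16 enters the nucleus, and the pathway is known for its control of dauer arrest, fat storage, stress resistance and lifespan. Much of this control acts on proteins, so a transcript level does not measure the activity of the pathway.

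The study lowered *nuo-5*, a subunit of complex I of the mitochondrial respiratory chain, by feeding wild-type N2 animals bacteria that express double-stranded RNA. RNA of whole larvae labelled as the L3 stage, grown at 20 °C, was hybridised to Affymetrix gene arrays, 4 arrays each for the empty vector pL4440 (control), mild RNAi and strong RNAi. The mild state belonged to parental animals and the strong state to their offspring, so strength and generation cannot be told apart, and the strong RNAi larvae were growth-arrested. The study describes this comparison without lutein, which it examined in a separate experiment, although the protocol in the labels names both DMSO and lutein plates and no label gives the supplement of an array. No label says which generation the control larvae belonged to. Each group holds the replicate numbers I, III, IV and V, and 1 further replicate had been left out by the authors as very different from the others. Because the RNA comes from whole animals, fewer cells of a type and less RNA per cell cannot be told apart.

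The targeted transcript was checked first. The *nuo-5* level was 8.29, 8.56, 8.43 and 8.42 on control arrays I, III, IV and V, 7.15, 7.56, 7.25 and 7.66 on the mild arrays, and 6.95, 7.09, 7.22 and 6.89 on the strong arrays. No RNAi array reached the lowest control array, and the means lay lower by 1.02 in the mean for mild and 1.39 for strong RNAi on the log2 scale (two-sided exact permutation p = 0.0286 for each, the smallest that 4 against 4 arrays can give). Mild and strong arrays overlapped (exact permutation p = 0.0571). Arrays of one group correlated at 0.96 or above, and the pathway genes had a median SD between replicates of 0.20 in control, 0.24 in mild and 0.26 in strong RNAi.

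With strong RNAi, transcripts at both ends of the pathway rose: the receptor *daf-2*, the receptor adaptor *ist-1* and the FOXO factor *daf-16* were 2.03 to 2.80 times the control level. The PI3K adaptor *aap-1* also passed the threshold narrowly. In all, 4 of the 10 genes were higher than control at a limma adjusted p under 0.05, 0 were lower and 6 did not pass. Over all probe sets 13.7% were called in this comparison, 8.04% higher and 5.62% lower. The difference was above 0 for all 10 genes, with a median of 0.49 beside -0.05 over all probe sets. With mild RNAi, 0 of the 10 genes were called by limma and 0 had an unadjusted p under 0.05, against a background of 0.0171% of probe sets called and 980 of 29317 at an unadjusted p under 0.05.

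Mild and control arrays of the same number tended to deviate alike, so the mild comparison was also fitted in pairs on these 8 arrays, a fit added after seeing the data. Limma again called 0 of the 10 genes, with 0 at an unadjusted p under 0.05 beside 1753 of 29317 probe sets. Mild RNAi was above control in all 4 pairs for 3 of the 10 genes, *daf-2*, *ist-1* and *daf-16*, and below it in all 4 for 1, *pdk-1*, while 7.62% of all probe sets were above and 7.14% below in every pair. The paired 95% intervals of the 3 were -0.06 to 0.55, -0.09 to 0.45 and -0.14 to 0.36.

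**Figure D1:**
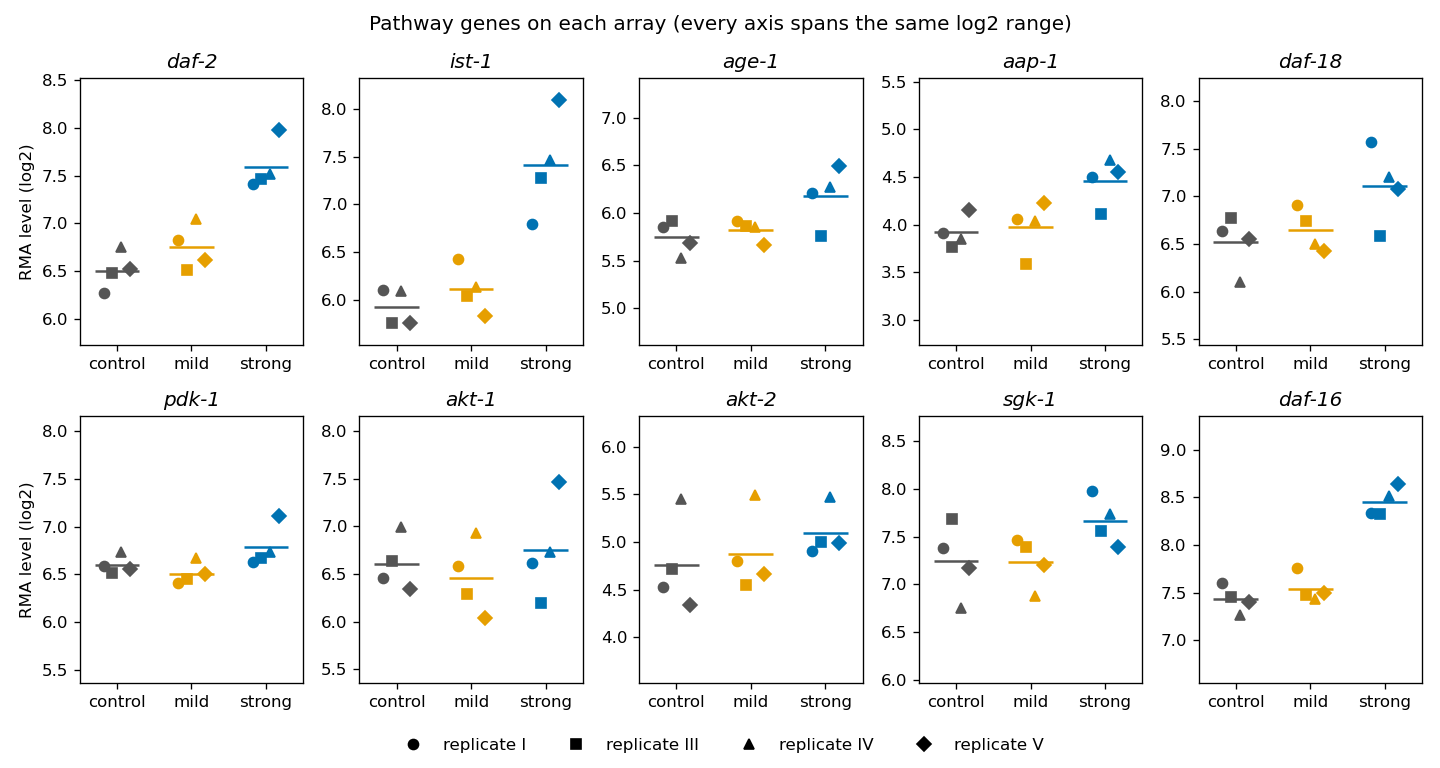
RMA level (log2) of the 10 pathway genes on each of the 12 arrays, by group, with the marker shape giving the replicate number and the line the group mean. Each axis spans the same range, so distances compare between panels, and the strong arrays stand wholly above the control and mild arrays for *daf-2*, *ist-1* and *daf-16*.

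At the receptor, the *daf-2* level (probe set 18530225) was 6.26, 6.48, 6.76 and 6.52 on control arrays I, III, IV and V, 6.82, 6.50, 7.05 and 6.61 on the mild arrays, and 7.41, 7.47, 7.51 and 7.98 on the strong arrays. The lowest strong array stood above the highest of the other 8, while mild and control arrays overlapped. The receptor transcript was thus 2.13 times the control level with strong RNAi, a difference of 1.09 on the log2 scale (SE 0.17, 95% confidence interval 0.73 to 1.45, limma adjusted p = 0.00166). Between strong and mild RNAi the difference was 0.85 (limma adjusted p = 0.00912), and between mild RNAi and control it was 0.24, with an interval of -0.12 to 0.60.

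The adaptor gene *ist-1*, a homologue of the mammalian insulin receptor substrates, had the largest difference of the 10 genes. Its level (probe set 18606646) was 6.10, 5.75, 6.10 and 5.75 on the control arrays in the same order, 6.43, 6.04, 6.13 and 5.83 with mild RNAi, and 6.80, 7.28, 7.47 and 8.09 with strong RNAi. All 4 strong arrays were above all others, and they were also spread more widely than any other group of this gene, with an SD of 0.53 beside 0.20 in control. The mean was 2.80 times control, 1.48 on the log2 scale (SE 0.23, interval 0.98 to 1.99, limma adjusted p = 0.00192). Strong RNAi exceeded mild RNAi by 1.30 (limma adjusted p = 0.00625), and mild RNAi differed from control by 0.18, with an interval of -0.32 to 0.69.

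At the other end of the pathway, *daf-16* encodes the only FOXO factor of the worm. Its level (probe set 18458719) was 7.60, 7.46, 7.26 and 7.40 in control, 7.76, 7.48, 7.43 and 7.49 with mild RNAi, and 8.34, 8.32, 8.51 and 8.64 with strong RNAi. The strong arrays again lay above the other 8, with an SD of 0.15. The transcript was 2.03 times control, 1.02 on the log2 scale (SE 0.12, interval 0.75 to 1.29, limma adjusted p = 0.000465), and this was the smallest adjusted p of the 10 genes. Strong RNAi stood 0.91 above mild RNAi (limma adjusted p = 0.00168), and mild RNAi 0.11 from control, with an interval of -0.16 to 0.38.

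These 3 genes were the only ones of the 10 whose strong arrays did not overlap the control arrays, and likewise the only ones for strong against mild RNAi. Arrays of strong RNAi stood wholly above control for 9.39% of all probe sets and wholly above mild RNAi for 6.98%. For mild RNAi against control, the arrays of all 10 genes overlapped, and 2.46% of all probe sets had groups that did not overlap in either direction. Between strong and mild RNAi limma called the same 3 genes higher and 0 lower, beside 10.2% of all probe sets called, 5.82% higher and 4.34% lower, and the median difference was 0.45 beside -0.04 over all probe sets. Without strong array III, *age-1*, *aap-1* and *daf-18* were also called against mild RNAi, 6 genes in all, and the share called over all probe sets was 13.9%. The 3 comparisons share arrays, so they are not independent of each other.

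**Figure D2:**
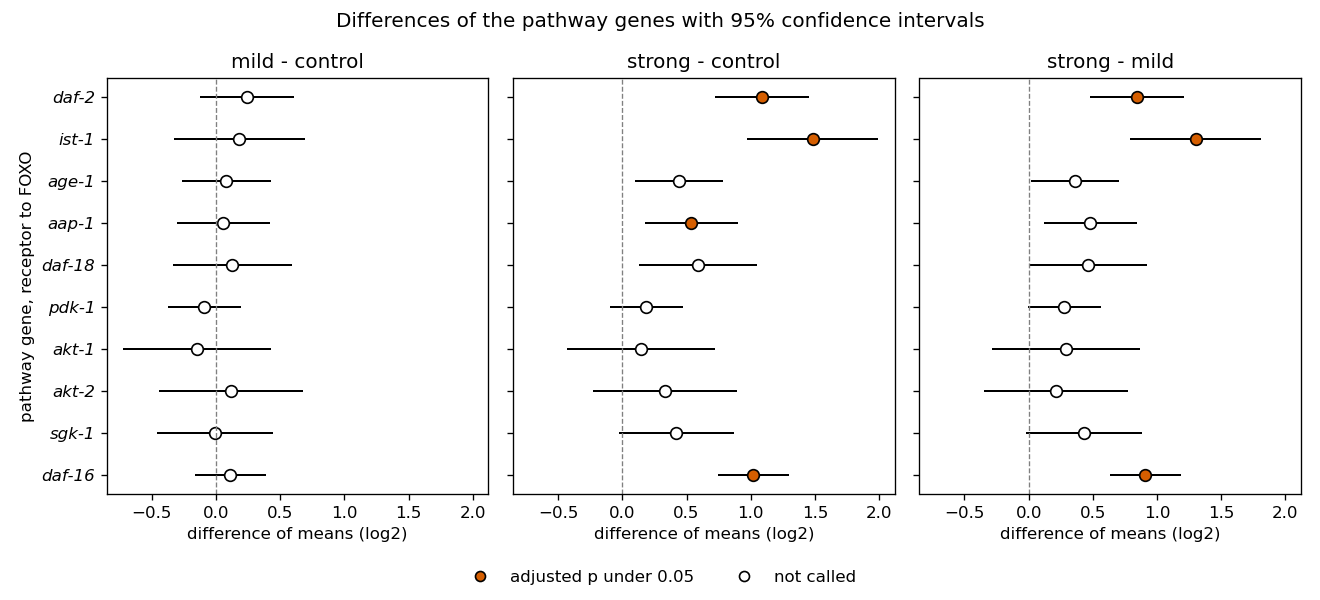
Difference of group means (log2) of the 10 pathway genes, ordered from the receptor to FOXO, for mild against control, strong against control and strong against mild RNAi. Lines are 95% confidence intervals and filled points passed an adjusted p of 0.05: 0, 4 and 3 genes in the 3 panels.

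The phosphoinositide 3-kinase stands next in the pathway, with the catalytic subunit *age-1* and the adaptor subunit *aap-1*. The *age-1* level was 5.85, 5.92, 5.53 and 5.68 in control, 5.92, 5.86, 5.85 and 5.67 with mild RNAi, and 6.21, 5.76, 6.27 and 6.50 with strong RNAi. Strong arrays I, IV and V exceeded every control array, and strong array III lay among them. The difference from control was 0.44 (SE 0.15, interval 0.10 to 0.78) and was not called (limma adjusted p = 0.0804). Without strong array III it was 0.58 and was called (limma adjusted p = 0.0116), in a fit that called 16.7% of all probe sets.

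The *aap-1* transcript gave a dim signal, with 3.91, 3.77, 3.85 and 4.15 in control, 4.05, 3.59, 4.04 and 4.23 with mild RNAi, and 4.50, 4.11, 4.68 and 4.55 with strong RNAi. Strong array III fell just under the highest control array. The difference from control was 0.54 (SE 0.16, interval 0.18 to 0.89, limma adjusted p = 0.0473). This call was lost under 13 of 22 alternative settings, with adjusted p from 0.0136 to 0.132, among them leaving out any one of control arrays I, III and IV, mild arrays I and IV or strong arrays I, IV and V. Against mild RNAi the difference of 0.48 was not called (limma adjusted p = 0.0866).

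The phosphatase gene *daf-18* opposes *age-1* in the pathway. Its level was 6.64, 6.78, 6.11 and 6.55 in control, 6.91, 6.75, 6.50 and 6.43 with mild RNAi, and 7.57, 6.58, 7.20 and 7.08 with strong RNAi. As with both kinase subunits, strong arrays I, IV and V were above every control array and strong array III was among them. The difference from control of 0.59 (SE 0.21, interval 0.14 to 1.04) was not called (limma adjusted p = 0.0822), and without strong array III it was 0.77 and was called (limma adjusted p = 0.0163).

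None of the 4 kinase genes between the lipid signal and DAF-16 was called in any comparison. The level of *pdk-1*, whose product activates the AKT kinases, was 6.59, 6.52, 6.74 and 6.55 in control, 6.41, 6.45, 6.67 and 6.50 with mild RNAi, and 6.63, 6.68, 6.73 and 7.11 with strong RNAi. Its strong arrays overlapped control, with strong array V alone above every control array. The difference was 0.19, with an interval of -0.09 to 0.46 (limma adjusted p = 0.383).

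Of the AKT genes, *akt-1* read 6.46, 6.64, 6.99 and 6.35 in control, 6.59, 6.29, 6.93 and 6.04 with mild RNAi, and 6.62, 6.19, 6.73 and 7.47 with strong RNAi. The strong group held both the lowest array of *akt-1* outside mild RNAi, array III, and the highest of all 12, array V. The difference from control of 0.14 had an interval of -0.42 to 0.71 (limma adjusted p = 0.775), and without strong array V it was -0.10.

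The second AKT gene, *akt-2*, read 4.53, 4.71, 5.45 and 4.34 in control, 4.80, 4.55, 5.49 and 4.66 with mild RNAi, and 4.90, 5.00, 5.47 and 4.99 with strong RNAi. Array IV was the highest in each of the 3 groups. The difference between strong RNAi and control was 0.33, with an interval of -0.22 to 0.89 (limma adjusted p = 0.449).

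The gene *sgk-1* encodes a serum- and glucocorticoid-inducible kinase related to the AKT kinases, which acts with TORC2. Its level was 7.38, 7.68, 6.75 and 7.17 in control, 7.47, 7.39, 6.88 and 7.21 with mild RNAi, and 7.97, 7.56, 7.74 and 7.39 with strong RNAi. Only strong arrays I and IV exceeded every control array. The difference was 0.42, with an interval of -0.02 to 0.86 (limma adjusted p = 0.206). A difference of the size seen for *daf-16* lay outside the intervals of *pdk-1*, *akt-1*, *akt-2* and *sgk-1*. Rises up to their upper ends, 0.46, 0.71, 0.89 and 0.86, did not.

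Strong array III set the genes apart from each other. It carried 3 of the 10 genes above every control array, namely *daf-2*, *ist-1* and *daf-16*, and 1 gene, *akt-1*, below every control array, whereas strong arrays I, IV and V carried 7, 8 and 8 genes above and 0 below. Over all probe sets, 25.9%, 23.2%, 25.1% and 27.4% exceeded every control array in strong replicates I, III, IV and V, and 31.4%, 26.6%, 29.9% and 32.4% lay under every control array. On the same array the median of adult and oocyte genes did not rise as on the other strong arrays. A link between this and the pathway genes was not tested. Over 17 genes for yolk proteins, adult cuticle and oocytes, the median stood 2.54, 3.07 and 2.40 above the control mean in strong replicates I, IV and V, and at -0.03 in replicate III. In a fit with strong array III as the only strong array, chosen after seeing these values and with the spread pooled over the other arrays, the differences from control were 0.96 for *daf-2*, 1.35 for *ist-1* and 0.89 for *daf-16*. They were 0.02 for *age-1*, 0.19 for *aap-1* and 0.06 for *daf-18* in the same fit. With 1 strong array this fit holds no spread of the strong group, so its calls are not given.

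Genes of several tissue lists were also called with strong RNAi, beside 13.7% of all probe sets, and their part in the pathway results was not tested. Levels of a marker list are given as the log2 of the sum of its linear values. Neuron markers were called higher for 3 of 8 genes, among them the neuropeptide-processing enzymes *egl-21* (1.33) and *egl-3* (1.24), and 5 were not called. The summed level of neuron markers was 10.79 to 11.11 in control, 10.67 to 11.25 with mild RNAi and 11.51 to 12.37 with strong RNAi. Such a sum mostly follows its brightest genes, here *egl-3* and *egl-21*. The list median stood 0.09, 0.37, 0.50 and 0.98 above the control mean in strong replicates I, III, IV and V. The intestine list had 1 of 5 genes higher, the GATA factor *elt-2* (1.57), and the pharynx list 1 of 5, *pha-4* (0.63). A share of 20% in lists this short is near that of all probe sets, and these counts are no result about either list. The pharynx list had a median of 0.01, with 2 of 5 means below control. Body muscle markers were lower for 4 of 7 genes, with a summed level of 13.93 to 14.14 in control, 13.87 to 14.07 with mild RNAi and 12.82 to 13.75 with strong RNAi. Epidermis markers were lower for 2 of 6 and germline markers for 3 of 7 genes. Adult and oocyte genes were higher for 9 of 17, with summed levels of 10.79 to 10.92, 10.69 to 11.07 and 10.43 to 13.19 in control, mild and strong RNAi. The summed ranges of control, mild and strong RNAi were 11.71 to 12.31, 11.73 to 12.39 and 12.33 to 12.49 for intestine, 11.08 to 11.35, 11.11 to 11.34 and 10.79 to 11.36 for pharynx, 12.77 to 13.28, 12.75 to 13.07 and 11.28 to 12.50 for epidermis, and 9.84 to 10.36, 9.58 to 10.37 and 8.82 to 10.34 for germline. All neuron, body muscle, intestine and germline markers were above the dim level on all arrays, as were 13 of 17 adult, 5 of 6 epidermis and 4 of 5 pharynx genes.

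Upstream of the receptor, *C. elegans* has a large family of insulin-like peptides, some of which activate DAF-2 and some of which oppose it. Of 40 ligand genes measured, 9 were higher and 1 lower with strong RNAi than in control, and 30 did not pass. The share called was 25%, beside 13.7% of all probe sets, and the median difference was 0.11 beside -0.05. Among the called genes, the largest differences were those of *ins-11* (2.29, limma adjusted p = 0.00396), *ins-24* (2.01, 0.00275), *ins-30* (1.43, 0.0276) and *ins-17* (1.19, 0.00463). The single ligand gene called lower was *ins-9*, at -0.71 (0.0157), from 4.11 to 4.33 in control to 3.17 to 3.72 in strong RNAi. In all, 19 of the 40 means lay below control. Only 21 of the 40 genes were above the dim level on all 12 arrays, so the sign of a dim gene says little. With strong against mild RNAi 6 were higher and 1 lower, 17.5% called beside 10.2% of all probe sets. With mild RNAi against control 0 were called (1 at an unadjusted p under 0.05), beside 0.0171% of all probe sets.

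Around the kinases, a list of 15 further phosphatases, kinases and membrane proteins that act on DAF-2, AKT-1, AKT-2 or SGK-1 gave 2 higher and 0 lower genes with strong RNAi, with a median of 0.10. The called share of 13.3% was near the 13.7% of all probe sets and is no result about the list. One of the 2 was *rict-1*, the Rictor subunit of TORC2, which acts upstream of SGK-1. Its level was 5.85 to 6.23 in control, 6.19 to 6.75 with mild RNAi and 6.63 to 7.22 with strong RNAi, a difference from control of 0.85 (SE 0.16, limma adjusted p = 0.00501). The other was *asna-1*, an ATPase that promotes insulin secretion in the worm, with 8.30 to 8.66 in control and 8.88 to 9.09 in strong RNAi, a difference of 0.53 (SE 0.12, limma adjusted p = 0.00999). The count of 2 became 4 without strong array I, in a fit that called 13.7% of all probe sets.

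Among 15 measured partners and regulators of DAF-16, 4 were higher, 1 was lower and 10 did not pass. The share called was 33.3%, beside 13.7% of all probe sets, and the median was 0.19 beside -0.05. The 4 higher genes were transcription factors that act beside DAF-16. They were *hlh-30*, the worm TFEB homologue of autophagy and lysosome genes (0.83, limma adjusted p = 0.00297), *pqm-1*, a zinc finger factor that enters the nucleus in opposition to DAF-16 (0.78, 0.0075), *skn-1*, the Nrf homologue of detoxification (0.69, 0.00947), and *daf-12*, the nuclear hormone receptor of dauer control (0.63, 0.0241). The lower gene was *imb-2*, which encodes an importin that carries DAF-16 into the nucleus (-0.38, limma adjusted p = 0.0416). The range of *imb-2* was 6.91 to 7.35 in control and 6.72 to 6.76 in strong RNAi. The count of 5 was 3 without control array V, strong array IV or strong array V, each taken alone. Those fits called 9.4%, 8.71% and 8.73% of all probe sets.

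Targets of the pathway were described with a pair of lists of genes known to respond when DAF-2 is low in *C. elegans*. Of 22 measured genes known to be raised in a DAF-16-dependent way, 8 were higher with strong RNAi than in control, 1 was lower and 13 did not pass. The share called was 40.9%, beside 13.7% of all probe sets, and the median was 0.59 beside -0.05. Strong arrays stood wholly above control for 9 of the 22 genes, among them all 8, beside 9.39% of all probe sets. Since the 8 were called on these same arrays, that is no separate support for them. Array by array the median of this list was 0.63, 0.72, 0.78 and 0.65 above the control mean for strong replicates I, III, IV and V. The list median of strong array III thus lay within the range of the others, which does not hold for every gene. Between strong and mild RNAi 7 were higher and 1 lower, 36.4% called beside 10.2% of all probe sets. Between mild RNAi and control 0 of 22 were called by limma, with 0 at an unadjusted p under 0.05.

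The largest rise in this list was that of *mtl-1*, a metallothionein, with 4.38, 5.03, 5.83 and 4.75 in control and 9.09, 7.43, 10.35 and 9.22 with strong RNAi, a difference of 4.02 (SE 0.63, limma adjusted p = 0.00192). The lysozyme gene *lys-7* rose by 2.75 (SE 0.33, limma adjusted p = 0.000418) from a control level of 2.77 to 3.73, at the dim level, to 5.38 to 6.54. The nicotinamide nucleotide transhydrogenase gene *nnt-1* rose by 1.90 (SE 0.29, limma adjusted p = 0.0017), from 3.82 to 5.10 in control to 6.20 to 6.84. The mitochondrial superoxide dismutase gene *sod-3*, widely used as a DAF-16 reporter and named here for that reason after its values were seen, read 4.50, 4.63, 4.71 and 5.07 in control, 4.59, 4.91, 4.88 and 4.66 with mild RNAi, and 5.93, 6.92, 6.23 and 5.51 with strong RNAi. Its difference was 1.42 (SE 0.24, limma adjusted p = 0.00317), and strong array III was its highest array. The small heat shock gene *sip-1*, the linker histone gene *hil-1*, the metallothionein gene *mtl-2* and the trehalose synthesis gene *tps-1* made up the 8, with differences of 0.78 to 1.87. Strong array III was the lowest strong array for *mtl-1*, *nnt-1*, *sip-1* and *hil-1*, and lay between the others for *lys-7*, *mtl-2* and *tps-1*. On it *sip-1* read 4.98, against up to 4.84 in control and 6.36 to 7.24 on the other strong arrays.

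The gene that fell was *fat-7*, a stearoyl-CoA desaturase that makes oleic acid and is known to be raised when DAF-2 is low. It read 8.63, 9.50, 9.29 and 9.51 in control, 7.38, 8.49, 7.98 and 9.30 with mild RNAi, and 4.80, 3.33, 6.63 and 3.65 with strong RNAi. Mild RNAi was below control in all 4 same-numbered pairs and was not called in the paired fit (-0.95, limma adjusted p = 0.717). All 4 strong arrays were below all others, and the difference from control was -4.63 (SE 0.61, limma adjusted p = 0.000732), opposite in sign to the 8 genes above. The desaturase *fat-5* of the same list differed by 0.89 and was not called (limma adjusted p = 0.289).

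None of the genes known to be lowered when DAF-2 is low was called lower. Of 9 measured, 4 were higher with strong RNAi, 0 were lower and 5 did not pass. The share called was 44.4%, beside 13.7% of all probe sets, and the median was 1.21 beside -0.05. Both yolk protein genes were among the 4: *vit-5* differed by 4.73 and *vit-2* by 4.32 (limma adjusted p = 0.00897 and 0.00987). They are also in the adult and oocyte list, and on strong array III they read 3.73 and 3.89, against 7.26 to 10.71 and 8.30 to 9.88 on the other strong arrays and up to 2.78 and 3.88 in control. Of the 5 that did not pass, *dod-24* (-1.35, limma adjusted p = 0.068) and *dod-17* (-0.48, 0.33) lay below control. The remaining called genes were *dod-20* (2.39, limma adjusted p = 0.00475) and *dod-19* (1.54, limma adjusted p = 0.0158). Strong array III was their lowest strong array too, at 3.97 for *dod-20* and 10.84 for *dod-19*. The other strong arrays read 5.08 to 6.19 and 11.72 to 12.11, and control reached up to 3.41 and 10.74. Control arrays of *vit-5* were all under the dim level of 3.01, so its fold is uncertain. With mild RNAi 0 of 9 were called (0 at an unadjusted p under 0.05).

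**Figure D3:**
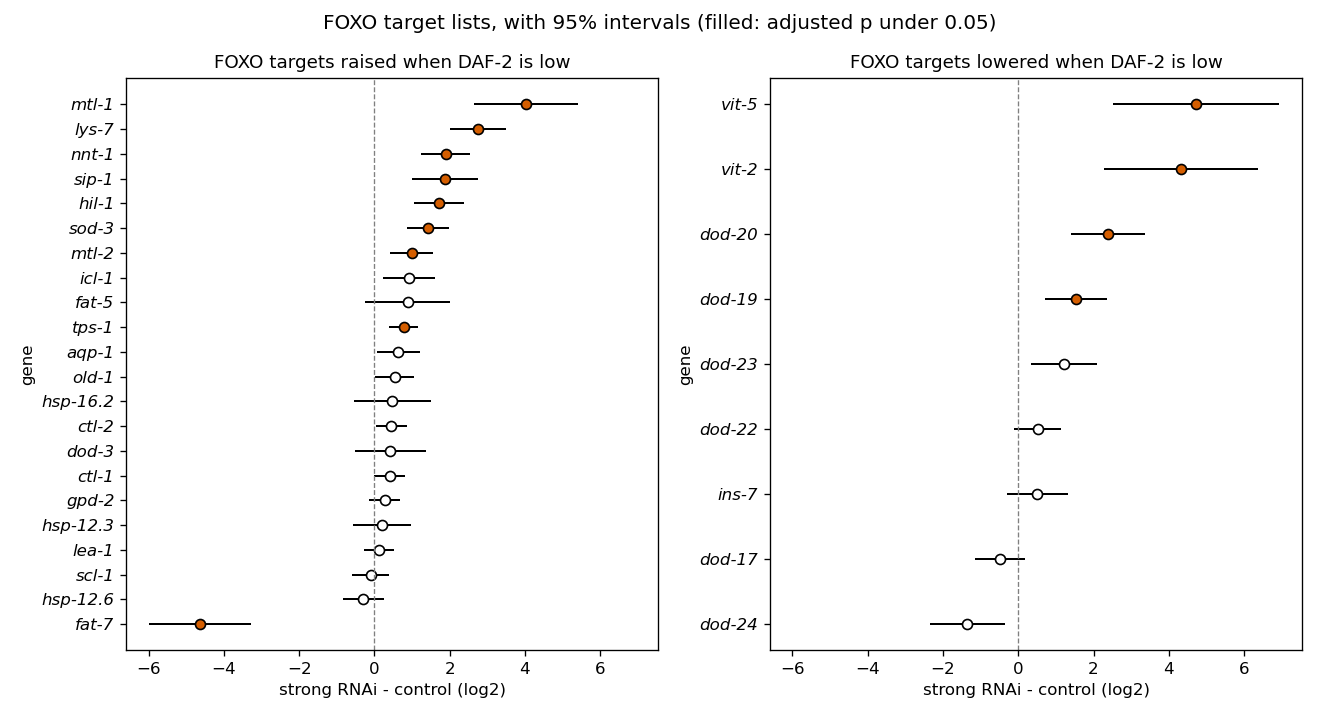
Difference between strong RNAi and control (log2) for 22 genes known to be raised (left) and 9 known to be lowered (right) when DAF-2 is low, with 95% confidence intervals, filled where the adjusted p was under 0.05. On the left 8 filled points lie above 0 and that of *fat-7* far below it, and on the right the 4 filled points all lie above 0.

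Within a group, some of the pathway genes varied alike. Control array IV and mild array IV stood out alike: *akt-2* was 0.69 and 0.62 above its group mean on them, *akt-1* 0.38 and 0.47 and *daf-2* 0.25 and 0.30, whereas *sgk-1* was 0.49 and 0.36 below. On strong array IV only *akt-2* kept such a deviation, at 0.38. Strong array V was instead the array with the highest *daf-2*, *ist-1*, *age-1*, *pdk-1*, *akt-1* and *daf-16* of its group. Over the 45 pairs of genes, deviations from the group means on the 12 arrays correlated at -0.76 to 0.86, with a median of 0.26. They correlated at 0.86 between *daf-2* and *akt-1*, at 0.82 between *daf-2* and *pdk-1* and at 0.77 between *daf-18* and *sgk-1*, and at -0.76 between *pdk-1* and *sgk-1*. These correlations describe 12 arrays that share larvae and hybridisation within an array, and same-numbered mild and control arrays are not independent.

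**Figure D4:**
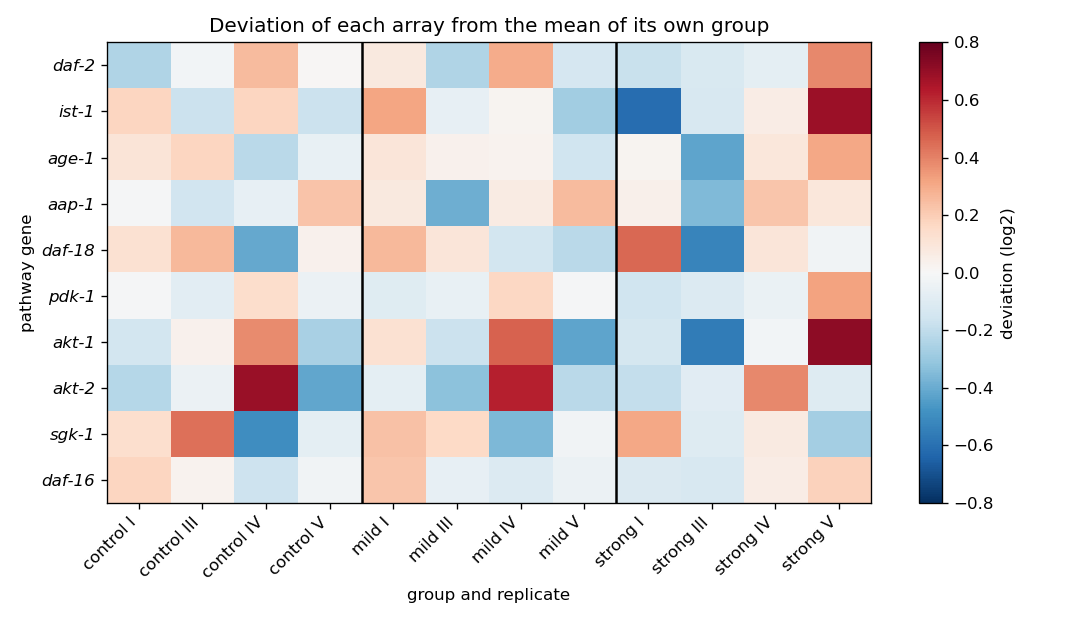
Deviation (log2) of each array from the mean of its own group for the 10 pathway genes, with columns for the 12 arrays by group and replicate and red for higher. Control IV and mild IV share high *akt-1*, *akt-2* and *daf-2* with low *sgk-1*, and strong array III is low for *age-1*, *aap-1*, *daf-18* and *akt-1*.

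The genes whose levels followed those of *daf-2*, *ist-1* and *daf-16* most closely were looked up by Pearson correlation over the 12 arrays. This correlation here mostly reflects the step between strong RNAi and the other groups. The search covered 15348 genes whose mean over all 12 arrays lay above the dim level, so high strong arrays could help a gene pass. For *daf-2* the closest genes were the F-box gene *fbxa-91* (0.98), F57G12.1 (0.98) and F36A2.3 (0.98). For *ist-1* they were *npr-25* (0.98), *pqn-65* (0.98) and *nssp-82* (0.98), and for *daf-16* F09A5.2 (0.99), H03A11.2 (0.99) and F25A2.1 (0.99). F09A5.2 and F25A2.1 were near the dim level outside strong RNAi, with means of 2.95 and 3.07 in control and 3.07 and 2.96 with mild RNAi. Their means with strong RNAi were 5.39 and 5.66.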

How the data were processed

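Total RNA of 12 whole-larva samples was measured on *C. elegans* Gene ST arrays of Affymetrix, called 2.0 in the labels and 1.0 in the methods. The authors deposited log2 values made by RMA, which corrects background, normalizes arrays by quantiles and gives 1 value per probe set, so equal total signal was assumed. Such normalization can hide a shift of all genes, and the number of arrays limits the precision. The table held 29317 probe sets with 0 missing values, and 0 columns were left unmapped. Symbols came from the platform annotation, and 25546 probe sets had 1, 646 several and 3125 none. Updates by gene identifier matched 25495 entries.

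The 3 group means were fitted together on all 12 arrays by limma 3.58.1 under R 4.3.3 with moderated variances, and the Benjamini-Hochberg adjusted p, taken across the whole table, was called at 0.05. The fit was tested on simulated data. Replicates are separate biological samples, and *nuo-5* was also compared by exact permutation. The pathway genes and lists were chosen with earlier results of these data known. Named were all 10 genes, *nuo-5*, up to 4 genes per list with the largest called difference, and the 3 most similar genes for *daf-2*, *daf-16* and *ist-1*. The alternatives were 22 settings: the replicate block, only the arrays compared, renewed quantile normalization, median centring, a dim filter, only probe sets with 1 symbol, intensity trend with robust estimation, array weights, averaging the probe sets of a gene, a threshold of 0.01, and dropping each array singly. Deviations of same-numbered arrays over all probe sets correlated at 0.20 to 0.34 between mild RNAi and control. Those groups were therefore also fitted in pairs. The deviations correlated at 6.78e-05 to 0.31 between strong RNAi and control and 0.04 to 0.23 between strong and mild RNAi. No added paired fit was made there. The pairing was inferred from these values alone, and their ranges overlap. Of the lists, 3 genes raised and 1 gene lowered by low DAF-2, 1 partner, 1 adult gene and 1 intestine marker were not matched by name and were not analysed here. Figures were drawn with matplotlib 3.10.9.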

Additional observations from a re-analysis of the deposited data

How the results depend on the processing

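Under all 22 planned settings *daf-2*, *ist-1* and *daf-16* kept their calls with strong RNAi, against control and against mild RNAi. Of 660 values of pathway genes, 628 kept direction and call, 13 lost the call (all *aap-1* between strong RNAi and control), 9 gained one and 10 changed sign. With the replicate block, 4 pathway genes were called between strong RNAi and control, 0 between mild RNAi and control and 4 between strong and mild RNAi, where *aap-1* was added (adjusted p = 0.0292). No other call of a pathway gene changed with the block, and a replicate block on only the 8 mild and control arrays, added after seeing the data, called 0. Leaving out 1 array gave 3 to 6 called genes against control and 3 to 6 against mild RNAi, beside 8.71% to 16.7% and 5.42% to 13.9% of all probe sets, with 6 genes in both without strong array III (16.7% and 13.9%), when *age-1* and *daf-18* were called.

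The sign changes were of small differences. Between mild RNAi and control, leaving out 1 array gave -0.026 to 0.19 for *aap-1*, -0.089 to 0.35 for *akt-2*, -0.0090 to 0.21 for *daf-18* and -0.17 to 0.14 for *sgk-1*, and centring on array medians gave 0.011 for *sgk-1*. Between strong RNAi and control it gave -0.10 to 0.33 for *akt-1*.

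With strong array III alone, chosen after seeing the data, differences against mild RNAi were 0.72 (*daf-2*), 1.17 (*ist-1*) and 0.78 (*daf-16*). They were -0.064 for *age-1*, -0.067 for *daf-18* and -0.27 for *akt-1*, and that of *akt-1* against control was -0.42. Calls of this fit are not given, because 1 array holds no spread of its group.

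Shares of all probe sets called in the same fit are given in brackets. Of the lists, the partners of DAF-16 had 3 calls against control with only the 8 arrays compared (10.2%). They had 3 at an adjusted p under 0.01 (5.35%) and 3 to 5 with 1 array left out (8.71% to 16.7%). Against mild RNAi they had 6 with array weights (14.9%) and 0 at an adjusted p under 0.01 (2.65%). The kinase list had 0 against mild RNAi with only 8 arrays (5.41%), with median centring (9.9%) and at an adjusted p under 0.01 (2.65%). With 1 array left out it had 0 to 2 (5.42% to 13.9%), and 2 to 4 against control (8.71% to 16.7%). The cause of these shifts was not tested. The low signal of *aap-1*, and control levels near or under the dim level for *lys-7*, *hil-1*, *vit-5* and *dod-20*, limit the folds given.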
